A study of Mus musculus with 40 samples.

Results

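The genes described here encode the subunits of oxidative phosphorylation, the 5 protein complexes of the inner mitochondrial membrane that carry electrons to oxygen and make ATP. They were taken from the array's probe table by symbol: names that begin with Nduf, Uqcr, Atp5 or Cox4 to Cox8, and Sdha to Sdhd. The names gave 77 genes with 95 probes. A gene was kept if a probe had a detection p under 0.01 on 5 or more of the 40 arrays, and the brightest such probe stood for it. This left 71 genes of the 9451 that passed the same filter, and 61 of the 71 were detected on all 40 arrays. The 6 genes left out were Atp5k, Cox7b2, Cox8c, Ndufs1 and Uqcrq, detected on 0 arrays, and Uqcrfs1, detected on 1. The members nearest to the limit were Ndufab1 on 18 arrays, Cox4i2 on 19 and Ndufb11 on 20.

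The arrays measured RNA of trabecular bone, which per the labels is the vertebral bodies L5 and L6, and of cortical bone, the marrow-flushed shafts of long bones. All mice were C57BL/6 females 15 weeks old that had been ovariectomized, so that every group lacks ovarian estrogen. At 1 week after surgery they received 17β-estradiol (E2) at 115 µg/kg by subcutaneous injection, or the olive oil vehicle alone, and RNA was collected 18 h later. Wild-type (WT) mice were set beside mice labelled Era-AF1 KO, in which estrogen receptor alpha lacks activation function 1 (AF-1), and the labels name no tissue-specific driver for this deletion. Bone, genotype and treatment give 8 groups of 5 arrays, and each of 5 BeadChips carries 1 array of every group. Neither the origin of the replicates from separate animals nor a pairing of the bones within a mouse is stated in the labels. The p-values therefore reflect only how these arrays vary, which may be technical. In whole bone, fewer cells of a type and less RNA per cell cannot be told apart.

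By their known roles, 33 of the 71 genes are named for complex I (NADH dehydrogenase, Nduf), 3 for complex II (succinate dehydrogenase, Sdh), 4 for complex III (cytochrome bc1, Uqcr), 14 for complex IV (cytochrome c oxidase, Cox) and 13 for complex V (ATP synthase, Atp5). The name rule also takes 3 assembly or coupling factors (Ndufaf1, Atp5s and Atp5sl) and Cox4nb, which is now called Emc8 and belongs to the endoplasmic reticulum membrane complex, not to cytochrome c oxidase. Cytochrome c oxidase has a catalytic core made from mitochondrial genes and a coat of nuclear-encoded subunits, some of which exist in tissue-specific forms. Cox6a2, Cox7a1 and Cox8b are the forms of heart and skeletal muscle, and Cox7a1 and Cox8b are also high in brown fat. Cox6a1 and Cox7a2 are the widely expressed partners of Cox6a2 and Cox7a1, Cox4i2 is a form of Cox4 known from lung, and Cox6b2 is known from testis. Cox8a, the partner of Cox8b, was not analysed here. Respiratory genes are usually regulated together, and their promoters are known for sites of nuclear respiratory factor 1 (NRF1), of ETS factors such as NRF2 and of estrogen-related receptors (ERR).

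RefSeq promoter windows (GRCm38.p6, from 250 bases before to 50 after each start) were matched by symbol to 60 of the 71 genes, with 66 windows. Both strands were searched for 5 motifs. The NRF1 motif, GCGC on either side of any 2 bases, was in 16 of the 66 windows (24.2%) and in 6.23% of all 32851 windows of this length. The ETS motif CCGGAAG was in 15 windows (22.7%) against 8.86% of all, and the ERR motif AAGGTCA in 6 (9.09%) against 4.72%. The muscle motifs were the E-box CAGCTG, in 5 member windows (7.58%) against 16.3% of all, and the MEF2 motif, CTA and TAG on either side of any 4 bases, in 1 (1.52%) against 3.69%. Some NRF1 matches can overlap one another, and a match is only a match of letters. The windows of the muscle form Cox8b, of the widely expressed Cox6a1 and of the complex II subunit Sdhb are printed because these genes behaved differently between the bones, with motif matches in capitals. Cox8b has 2 E-box matches and no other, Cox6a1 has 2 NRF1 matches and 1 ETS match, and Sdhb has 1 ETS match. Of the other muscle forms, Cox7a1 has a window with 0 matches to any of the motifs, and Cox6a2 has no window. The remaining member windows with an E-box are those of Atp5b, Ndufa8, Ndufb10 and Ndufv2, which are not muscle forms. The window of Cox8b is chr7:140900397-140900696 on the minus strand, that of Cox6a1 chr5:115348909-115349208 on the minus strand and that of Sdhb chr4:140961021-140961320 on the plus strand.
Cox8b: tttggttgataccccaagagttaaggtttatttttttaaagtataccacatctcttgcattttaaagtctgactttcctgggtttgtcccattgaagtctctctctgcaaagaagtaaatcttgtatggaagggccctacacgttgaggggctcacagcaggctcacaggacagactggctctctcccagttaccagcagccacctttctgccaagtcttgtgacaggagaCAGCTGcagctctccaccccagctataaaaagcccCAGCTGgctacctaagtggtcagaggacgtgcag
Cox6a1: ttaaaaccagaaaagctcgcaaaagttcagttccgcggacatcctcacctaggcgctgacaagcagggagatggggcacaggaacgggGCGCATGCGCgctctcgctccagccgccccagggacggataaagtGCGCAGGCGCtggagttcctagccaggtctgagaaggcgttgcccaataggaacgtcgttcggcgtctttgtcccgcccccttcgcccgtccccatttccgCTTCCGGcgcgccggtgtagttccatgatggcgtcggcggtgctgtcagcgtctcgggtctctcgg
Sdhb: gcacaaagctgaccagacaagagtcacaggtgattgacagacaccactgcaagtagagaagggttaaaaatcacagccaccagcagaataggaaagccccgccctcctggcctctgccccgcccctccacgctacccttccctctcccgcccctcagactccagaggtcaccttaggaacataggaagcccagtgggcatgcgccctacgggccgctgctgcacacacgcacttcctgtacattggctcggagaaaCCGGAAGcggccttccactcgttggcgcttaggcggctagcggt

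In the series as a whole, the number of detected probes was lowest on the trabecular arrays of BeadChip 1, at 8052 to 9218, against 10357 to 11203 on the other trabecular arrays. Cortical arrays ranged from 9880 to 11435 on BeadChip 1 and from 10324 to 11691 elsewhere. Skeletal muscle genes were prominent in cortical bone. Of a list of 26 muscle genes, 24 passed the filter, and their mean log2 level ran from 9.45 to 11.43 over the trabecular arrays (median 10.67) and from 11.32 to 13.87 over the cortical arrays (median 13.17). Of 6 brown fat markers, Ucp1, Elovl3, Dio2 and Kcnk3 were detected on 0 arrays, Cidea on 3 and Zic1 on 5. Of the markers of bone itself, 7 of 8 osteoblast genes, 3 of 4 osteocyte genes and 5 of 8 osteoclast genes passed the filter.

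The largest differences of the family were between the bones and lay in the muscle forms of complex IV. Levels are log2 intensities after background correction and quantile normalization, and replicates are given in the order of BeadChips 1 to 5. In vehicle-treated wild type, Cox8b was at 9.85, 9.49, 9.75, 8.47 and 10.07 in trabecular bone and at 12.14, 11.75, 11.75, 13.58 and 13.43 in cortical bone. The cortical arrays of BeadChips 4 and 5 stood above those of BeadChips 1 to 3. The difference, trabecular minus cortical, was −3.00 ± 0.44 (SE; limma, adjusted p = 7.05e-06).

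Cox7a1 was at 8.33, 8.60, 9.01, 7.89 and 8.98 in trabecular and at 11.25, 10.90, 10.93, 12.65 and 12.82 in cortical bone of the same groups. Cox6a2 was at 10.47, 10.78, 11.67, 10.53 and 11.40 in trabecular and at 12.54, 12.73, 13.02, 14.20 and 14.15 in cortical bone. Both genes again had their highest values on cortical BeadChips 4 and 5. The differences were −3.15 ± 0.47 for Cox7a1 and −2.36 ± 0.36 for Cox6a2, with limma adjusted p-values of 8.72e-06 and 1.35e-05.

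The widely expressed partners had other values on the same arrays. Cox6a1 was at 13.80, 13.68, 13.62, 13.61 and 13.95 in trabecular and at 13.21, 13.51, 13.37, 13.28 and 13.47 in cortical bone. Its difference of 0.36 ± 0.14 had a limma adjusted p of 0.0683, and of 0.0340 with the BeadChip as a replicate block. Cox7a2 was at 8.91, 9.03, 9.02, 8.97 and 8.41 in trabecular and at 8.23, 8.79, 8.67, 8.86 and 8.29 in cortical bone. These groups overlapped, and the difference of 0.30 has a 95% interval from −0.19 to 0.79.

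**Figure D1:**
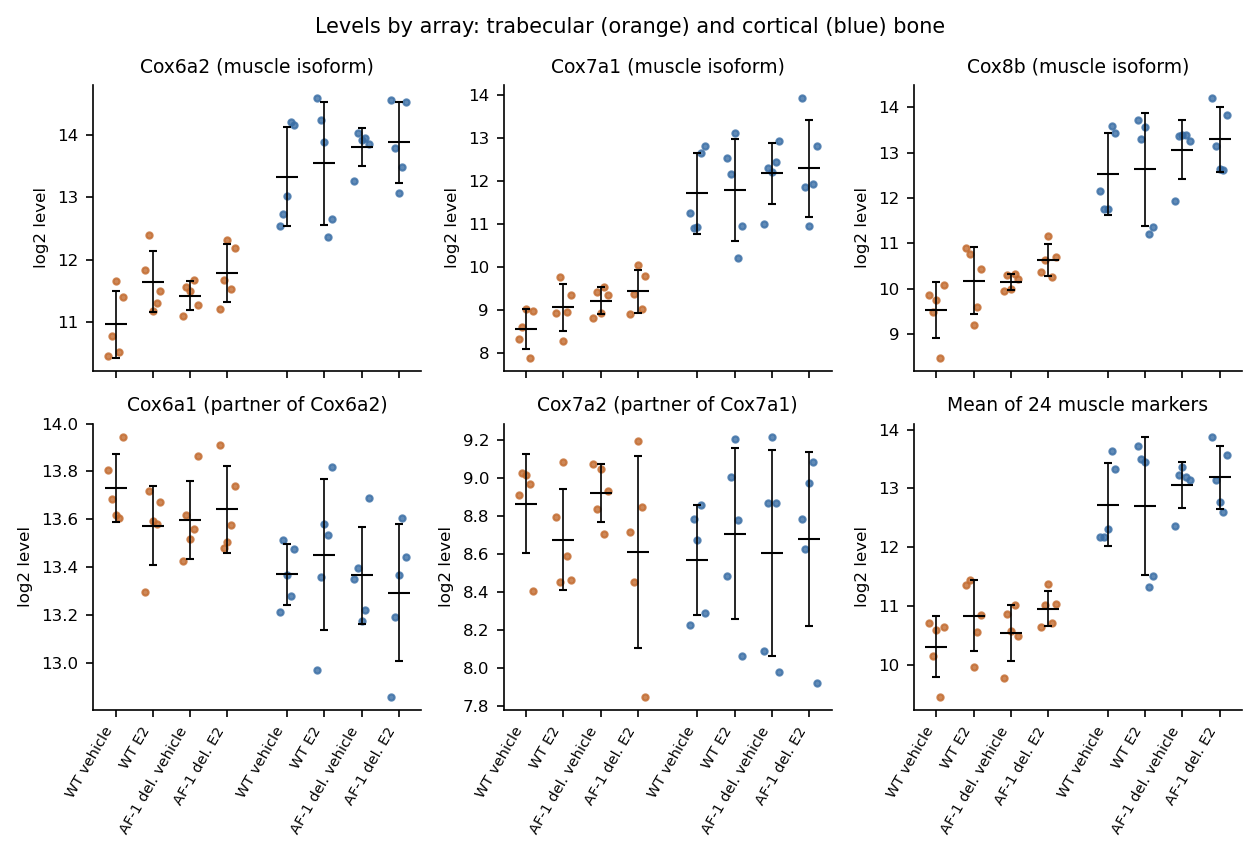
Log2 levels of the muscle forms Cox6a2, Cox7a1 and Cox8b (top), of the partners Cox6a1 and Cox7a2, and the mean of 24 muscle markers (bottom), 1 point per array; bars are the mean and SD of 5 arrays. The muscle forms are higher in cortical than in trabecular bone in every group (trabecular minus cortical from −3.15 to −1.90) while the partners stay within 13.95 and 12.86 (Cox6a1) and 9.22 and 7.85 (Cox7a2).

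In this comparison of vehicle-treated wild type, 13 of the 71 genes passed the test (adjusted p under 0.05), beside 20.6% of all genes tested. Cox6b2 alone was higher in trabecular bone, and 12 genes were lower. All genes tested were higher in 9.01% and lower in 11.6%. Of the 12, Cox4i2 passed the detection filter through the cortical arrays alone, which fixed its direction. Of the 70 genes kept in each bone 12 passed, 1 higher and 11 lower, beside 19.9% of the 8506 such genes, 9.46% higher and 10.4% lower. Cox6b2 was at 8.79, 9.10, 9.48, 8.94 and 8.86 in trabecular and at 6.73, 8.49, 8.50, 8.23 and 8.03 in cortical bone, a difference of 1.04 ± 0.28. The cortical array of BeadChip 1 was far below the others. The difference of Cox6b2 was 0.84 with arrays scaled to equal medians, where the call was lost (adjusted p = 0.264), and 0.67 without background correction, where it was kept. Besides the muscle forms, the genes that were lower by the test included Uqcr, a small subunit of complex III, at −0.47 ± 0.14, Cox5a, a subunit on the matrix side of complex IV, at −0.43 ± 0.14, and Ndufv2, an iron-sulfur subunit of complex I, at −0.46 ± 0.16. These 3 lost the call with equal medians. Complex II and complex V had 0 genes past limma's adjusted threshold, although 1 of 3 and 1 of 13 had an unadjusted p under 0.05. Sdhb of complex II was called with array quality weights (adjusted p = 0.0173), with the mean of its probes (0.0225) and without BeadChip 1 (0.00870). Atp5f1 of complex V was called with the replicate block (0.0368), with array quality weights (0.0137) and without BeadChip 1 (0.0160). The count was 7 without BeadChip 2, 4 without BeadChip 4 and 5 without BeadChip 5. With equal medians it was 4, beside 7.85% of all genes. It was 4 and 5 without the cortical array of BeadChips 4 and 5, and 8 without the trabecular array of BeadChip 1.

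Averaged over the 4 genotype and treatment groups, with 20 arrays a bone, 53 of the 71 genes passed the test, beside 55.7% of all genes. The direction was uneven: 2 genes were higher in trabecular bone and 51 lower, where all genes had 31.0% higher and 24.7% lower. The median difference was −0.30 over the 71 genes and 0.07 over all genes, and 65 of the 71 were negative. Without Cox4i2, 52 of the 70 genes kept in each bone passed, 2 higher and 50 lower, beside 55.3% of such genes, 32.8% higher and 22.4% lower. Of these 70 genes 64 were negative, beside 3460 of all 8506 genes kept in each bone. With arrays scaled to equal medians in place of quantiles, 25 passed, 1 higher and 24 lower, beside 30.0% of all genes, 9.72% higher and 20.3% lower. The muscle forms had a median difference of −2.76 and the 68 other genes one of −0.29.

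Counts by complex stand beside 32.8% higher and 22.4% lower of all genes kept in each bone, and were not taken with equal medians. Complex I, which takes electrons from NADH, was lower in 30 of 33 genes, with a median of −0.32. Its largest differences were those of the accessory subunits Ndufb5 (−0.77 ± 0.14), Ndufb2 (−0.67 ± 0.18) and Ndufb9 (−0.64 ± 0.18). In complex II, which joins the citric acid cycle to the chain, all 3 genes were lower. Its iron-sulfur subunit Sdhb ran from 10.10 to 10.80 over the trabecular arrays (median 10.50) and from 10.43 to 12.32 over the cortical ones (median 11.21). The bones overlapped in part, and the difference was −0.75 ± 0.11 (limma, adjusted p = 6.78e-07). The membrane anchor Sdhc was lower by −0.68 ± 0.13.

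In complex III all 4 genes were lower, led by Uqcr at −0.52 ± 0.07, which ran from 12.32 to 13.04 in trabecular and from 13.04 to 13.88 in cortical bone. The Uqcr ranges met at 13.04 and hardly overlapped. Complex V, the ATP synthase, was lower in 7 of 13 genes and negative in all 13, with a median of −0.21. Its 53.8% called stood near the 55.3% called of all genes kept in each bone, where 22.4% were lower. Atp5d, the delta subunit of its catalytic part, was lower by −0.45 ± 0.10 and Atp5b, the catalytic beta subunit, by −0.16 ± 0.06. Of the assembly and coupling factors 0 of 3 passed, and 0 had an unadjusted p under 0.05. Cox4nb, which is no subunit, had 0.19 ± 0.13 (adjusted p = 0.234).

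**Figure D2:**
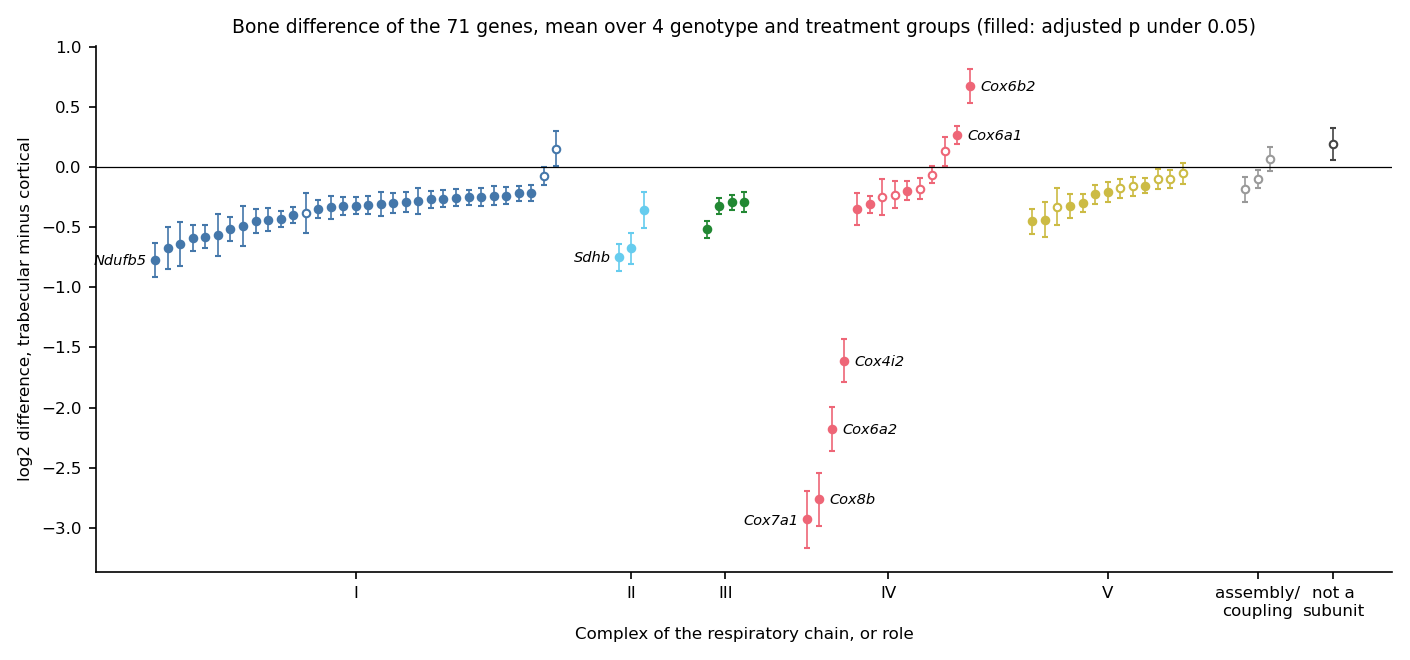
Log2 difference between trabecular and cortical bone of each of the 71 genes, averaged over the 4 genotype and treatment groups (y axis), by complex or role (x axis); bars are SE and filled points have an adjusted p under 0.05. The muscle forms Cox7a1 (−2.93), Cox8b (−2.76) and Cox6a2 (−2.18) stand apart from the others, which lie between −0.77 and 0.67 except for Cox4i2, whose point is set against trabecular values near background.

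Complex IV was the one complex that split in direction, with 6 genes lower and 2 higher of the 13 that were kept in each bone. All genes kept in each bone were lower in 22.4% and higher in 32.8%. Over the 20 arrays of each bone, Cox8b ran from 8.47 to 11.16 in trabecular (median 10.24) and from 11.21 to 14.22 in cortical bone (median 13.28). Cox7a1 ran from 7.89 to 10.06 (median 8.99) and from 10.21 to 13.94 (median 12.18). For both, every trabecular array lay below every cortical one, as held for 1.43% of all genes. The opposite order held for 0 of the 71 genes and for 0.0423% of all genes. Cox6a2 ran from 10.47 to 12.40 (median 11.50) and from 12.36 to 14.59 (median 13.87), an overlap of 1 array on each side. The differences were −2.76 ± 0.22 for Cox8b, −2.93 ± 0.24 for Cox7a1 and −2.18 ± 0.18 for Cox6a2, or about 6.78-fold, 7.61-fold and 4.53-fold lower in trabecular bone. They were negative in each genotype and treatment group, from −2.45 to −3.00 for Cox8b, and on all 5 BeadChips, from −2.60 to −3.04 for Cox8b.

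The 2 genes higher in trabecular bone were Cox6b2 and Cox6a1. Cox6b2 ran from 7.57 to 9.48 in trabecular (median 8.90) and from 6.73 to 8.79 in cortical bone (median 8.35), with a difference of 0.67 ± 0.14 (limma, adjusted p = 0.000111). Cox6a1 ran from 13.29 to 13.95 (median 13.61) and from 12.86 to 13.82 (median 13.37), with a difference of 0.27 ± 0.07 (limma, adjusted p = 0.00205). Both sets of ranges overlapped widely, and both genes were higher on all 5 BeadChips. With arrays scaled to equal medians, Cox6b2 kept its call in this comparison, at 0.54, while Cox6a1 lost it, at 0.14 (adjusted p = 0.635). Cox7a2 had 0.13, with a 95% interval from −0.12 to 0.37, and −0.0016 with equal medians. Without background correction Cox6b2 was at 0.44.

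Cox4i2 could be measured mainly in cortical bone, where it was detected on 18 of 20 arrays, against 1 of 20 in trabecular bone. It passed the filter through the cortical arrays, so that it had to differ. Its fitted difference over all groups was −1.61 with background correction and −0.66 without, and −1.09 and −0.46 in vehicle-treated wild type, so that no size is read from it. Where it was detected on no trabecular array, cortical bone was at least 1.72-fold higher with E2 in wild type, 1.17-fold with E2 in AF-1-deleted mice and 1.73-fold in their vehicle group. These bounds set the cortical mean against the lowest signal well above background.

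Within each BeadChip, which carries all 8 groups, the difference between the bones was negative in 62 of the 71 genes on BeadChip 1, 68 on BeadChip 2, 62 on BeadChip 3 and 65 each on BeadChips 4 and 5. The median ran from −0.22 to −0.39, and 57 genes were negative on all 5. These are the same arrays as in the comparison over all groups, and the share of all genes was not taken by BeadChip. Over all groups, 3460 of the 8506 genes kept in each bone were negative, beside 64 of the 70 members among them. Of the 11 genes with more than 1 kept probe, the probes had the same sign in 10 and differed in Ndufb6.

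Genes of related pathways were read from lists in the same comparison. Citric acid cycle genes were higher in 1 and lower in 9 of 16, with a median of −0.35, and citrate synthase (Cs) was at −0.34 ± 0.12. Fatty acid oxidation genes were lower in 8 of 9, with a median of −0.49, and Acadm, the medium-chain acyl-CoA dehydrogenase, was at −0.63 ± 0.09. Electron carriers and biogenesis factors were higher in 2 and lower in 5 of the 13 kept in each bone (median −0.12), among them cytochrome c (Cycs) at −0.40 ± 0.15. Assembly factors of the complexes were higher in 4 and lower in 8 of 27 (median −0.07), and glycolysis genes were higher in 3 and lower in 5 of 11 (median −0.08). These counts stand beside 32.8% higher and 22.4% lower over all genes kept in each bone, and each list has few genes.

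Markers of other cell types were read in the same comparison, over those kept in each bone and beside 32.8% higher and 22.4% lower of all such genes. All 23 muscle markers passed as lower in trabecular bone, with a median of −2.47, among them creatine kinase (Ckm) at −2.85 ± 0.28 and skeletal actin (Acta1) at −1.10 ± 0.13. Adipocyte markers were lower in 3 of 3 (median −1.48), osteoblast markers in 6 of 7 (median −0.51) and the osteocyte marker Mepe was at −3.22 ± 0.15. A further 2 adipocyte and 2 osteocyte markers were kept through cortical bone alone. Erythroid markers were higher in 3 of 6. Neutrophil markers were higher in 2 of 7, near the share of all genes, and limma called 0 of 5 osteoclast markers, with 1 at an unadjusted p under 0.05.

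With the muscle marker mean as a covariate, 1 of the 71 genes passed in the comparison of the bones over all groups, beside 3.34% of all genes. That gene was Cox4i2, whose direction the filter fixed, and 5 of the 71 had an unadjusted p under 0.05. The median over the 71 genes was then 0.04, and 42 were positive. Cox8b was at −0.27 ± 0.16 (adjusted p = 0.500), Cox7a1 at −0.58 ± 0.29 (0.364) and Cox6a2 at −0.29 ± 0.20 (0.576). Cox6a1 was at 0.02 and Cox6b2 at 0.56 ± 0.31 (adjusted p = 0.427). The marker mean scarcely overlaps between the bones, so that the covariate and the bone carry much of the same information, and the median SE rose from 0.09 to 0.18. The fit also took a single slope on the marker mean for both bones. Fitted within each bone, the median slope of the members was 0.19 in cortical and 0.03 in trabecular bone. In vehicle-treated wild type 0 genes passed with the covariate, beside 2.01% of all genes, and 8 of 71 had an unadjusted p under 0.05.

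**Figure D3:**
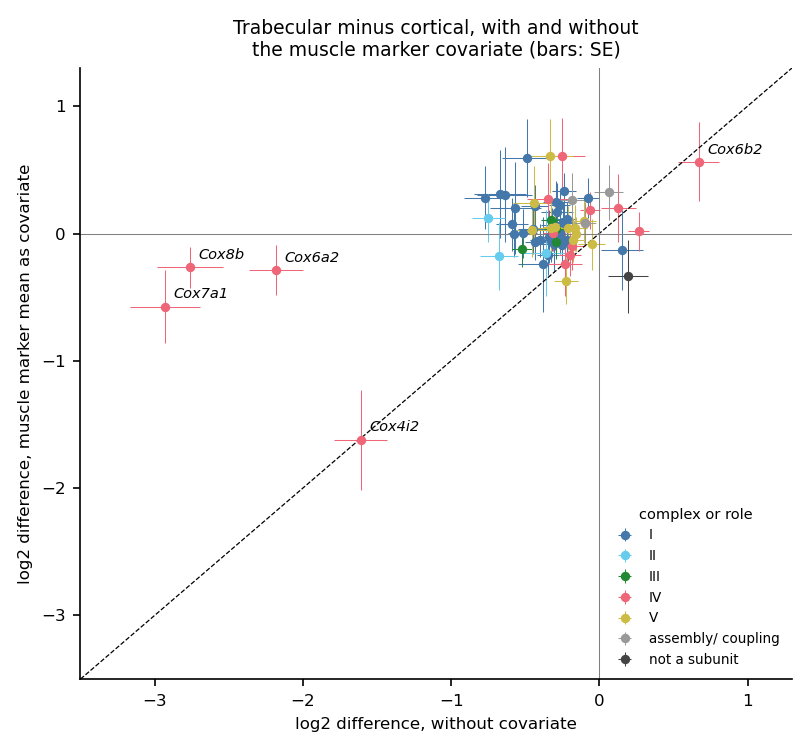
Log2 difference between trabecular and cortical bone of the 71 genes without a covariate (x axis) and with the mean of 24 muscle markers as a covariate (y axis), averaged over the 4 groups; bars are SE and the dashed line marks equal values. Cox8b, Cox7a1 and Cox6a2 move from −2.76, −2.93 and −2.18 to −0.27, −0.58 and −0.29, and Cox4i2, near background in trabecular bone, stays on the line. With the covariate the other genes lie between −0.37 (Atp5l) and 0.61 (Cox7b).

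Within a bone, where the marker mean also varied between replicates, the levels could be set against it with the group means in the fit, an analysis added after the data were seen. In cortical bone 25 of the 71 genes rose with the marker mean and 0 fell, beside 8.65% of all genes that rose and 4.39% that fell. Cox8b had a slope of 1.16 ± 0.07 log2 units per log2 unit of the marker mean, Cox7a1 of 1.16 ± 0.15 and Cox6a2 of 0.91 ± 0.08. Complex I rose in 16 of 33 genes, complex II in 2 of 3, complex III in 2 of 4, complex IV in 4 of 14 and complex V in 1 of 13. Among the genes that are not muscle forms, chosen here after their values were seen, Ndufb5 had a slope of 0.58 ± 0.09 and Sdhb of 0.53 ± 0.08. Cox6a1 had −0.16 ± 0.08 (adjusted p = 0.172) and Cox6b2 0.01 ± 0.17. The median slope was 0.19 over the 71 genes and −0.04 over all genes.

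In trabecular bone, where muscle markers were lower, 2 of 70 genes rose with the marker mean, beside 0.541% of all genes. Cox8b had a slope of 0.97 ± 0.13 and Cox7a1 of 0.74 ± 0.15 (adjusted p = 0.0221), which with the BeadChip as a replicate block became an adjusted p of 0.0519. Cox6a2 had 0.66 ± 0.16 (adjusted p = 0.101) and Sdhb 0.03 ± 0.11. Across the 20 arrays of cortical bone, the genes whose levels were most like those of Cox8b were Cox6a2 (Pearson r = 0.947), Cox7a1 (0.931), Ndufs7 (0.895), Sdhb (0.843) and Ndufa5 (0.840). In trabecular bone they were Cox7a1 (0.854) and Cox6a2 (0.791), followed by Ndufb6 (0.486), Ndufa4 (0.354) and Atp5s (0.339). These correlations describe arrays that share groups, BeadChips and one normalization.

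**Figure D4:**
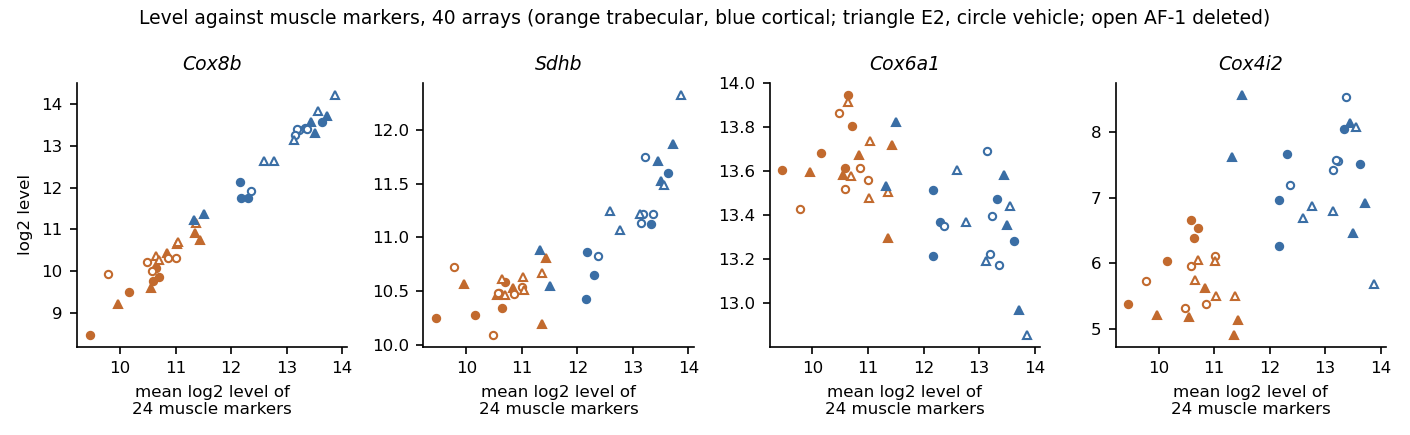
Log2 level of Cox8b, Sdhb, Cox6a1 and Cox4i2 (y axes) against the mean log2 level of 24 muscle markers (x axis), 1 point per array, 40 arrays. Cox8b follows the markers through both bones, and Sdhb does so within cortical bone (slope 0.53) and not within trabecular bone (slope 0.03). The slope of Cox4i2 within cortical bone, −0.09 ± 0.23, was too imprecise to give a direction.

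The question of the treatment was what E2 does in each bone with and without AF-1 of its receptor. For the oxidative phosphorylation genes, E2 gave 0 calls in wild-type trabecular bone (70 tested, 0.207% of all genes called), where 3 of 70 genes and 589 of 8693 had an unadjusted p under 0.05. Cox6a2 was at 11.83, 12.40, 11.18, 11.32 and 11.50 with E2, beside the vehicle values given above. Cox8b was at 10.91, 10.75, 9.20, 9.59 and 10.43. The groups overlapped for both genes, and the E2 arrays of BeadChips 1 and 2 were high. The differences, E2 minus vehicle, were 0.68 ± 0.27 for Cox6a2 (adjusted p = 0.684), 0.65 ± 0.31 for Cox8b (0.732) and 0.50 ± 0.28 for Cox7a1 (0.774). The muscle marker mean was 10.83 ± 0.61 with E2 and 10.31 ± 0.53 with vehicle (SD, n = 5), and 22 of the 23 muscle markers tested were positive, with a median of 0.53. The part of muscle RNA in these differences was not tested.

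The other 67 genes lay between −0.39 and 0.49 in this comparison, with a median of 0.05. Ndufa4, a subunit first assigned to complex I and later found with complex IV, was at 13.98, 13.73, 13.54, 13.71 and 13.78 with E2 and at 12.72, 13.40, 13.49, 13.50 and 13.49 with vehicle. The vehicle array of BeadChip 1 was low, and Ndufa4 was named here as the complex I gene with the smallest p-value in this comparison. The difference of 0.43 ± 0.15 had an adjusted p of 0.574. Cox6a1 had −0.16 ± 0.13 and Cox7a2 −0.19 ± 0.20.

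In AF-1-deleted trabecular bone E2 also gave 0 calls of 70 (0.0115% of all genes called), with 1 gene at an unadjusted p under 0.05. Cox8b had 0.47 ± 0.31, Cox6a2 0.36 ± 0.27 and Cox7a1 0.22 ± 0.28, and their partners had 0.05 ± 0.13 (Cox6a1) and −0.31 ± 0.20 (Cox7a2). Ndufb4, a subunit of the membrane arm of complex I, had 0.56 ± 0.26 (adjusted p = 0.964). Its vehicle arrays here include its lowest trabecular value, 5.60. A difference of the E2 effect between the genotypes was called in 0 of 70 genes (0.0115% of all genes called, 0 members at an unadjusted p under 0.05). The difference for Cox6a2 was −0.32, with a 95% interval from −1.10 to 0.47, so that equal effects and effects a log2 unit apart were both within it.

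In wild-type cortical bone 0 of 71 genes passed (0.143% of all genes called), and 0 members had an unadjusted p under 0.05. Cox8b was at 13.71, 13.30, 13.56, 11.21 and 11.36 with E2, the reverse of the vehicle pattern, where BeadChips 4 and 5 were the high ones. The muscle marker mean split the BeadChips in the same way, at 13.72, 13.50, 13.44, 11.32 and 11.51 with E2 and at 12.16, 12.17, 12.31, 13.63 and 13.33 with vehicle. The E2 difference of Cox8b was 0.10 ± 0.52, with a 95% interval from −0.99 to 1.18. Cox6a2 had 0.21 ± 0.42, Cox7a1 0.08 ± 0.58, Cox6a1 0.08 ± 0.16 and Cox7a2 0.14 ± 0.27. Of the 71 genes 57 were positive, with a median of 0.08, where 49.5% of all genes were positive. The E2 difference was positive in 53 of 71 genes in AF-1-deleted cortical bone. In trabecular bone it was positive in 44 of 70 in wild type and in 43 of 70 in deleted mice. The shares of all genes that were positive are not given for those comparisons. Genes on the same arrays are not independent, and no common direction is read from these counts. Sdhb had 0.37 ± 0.28 and Ndufa3 0.28 ± 0.15.

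In AF-1-deleted cortical bone E2 gave 0 calls of 71 (0.0% of all genes called), with 2 members and 318 of 9096 genes at an unadjusted p under 0.05. Atp5f1, the b subunit of the stalk that holds the ATP synthase still, was at 12.08, 11.44, 11.54, 11.61 and 11.90 with E2 and at 10.96, 11.30, 10.26, 11.32 and 11.50 with vehicle. The vehicle array of BeadChip 3 was the lowest, and the groups overlapped by 1 array each. The difference was 0.65 ± 0.21 (adjusted p = 0.999), against −0.06 in wild type. The difference between the genotypes, 0.71 ± 0.30 for Atp5f1, did not pass in a comparison with 0.0% of all genes called. Cox4i2 had −0.83 ± 0.43, and its difference between the genotypes was −1.08 ± 0.61. The E2 difference of Cox8b was 0.22 ± 0.52, that of Cox7a1 0.12 ± 0.58 and that of Cox6a2 0.08 ± 0.42, and the partners had −0.07 ± 0.16 (Cox6a1) and 0.07 ± 0.27 (Cox7a2).

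**Figure D5:**
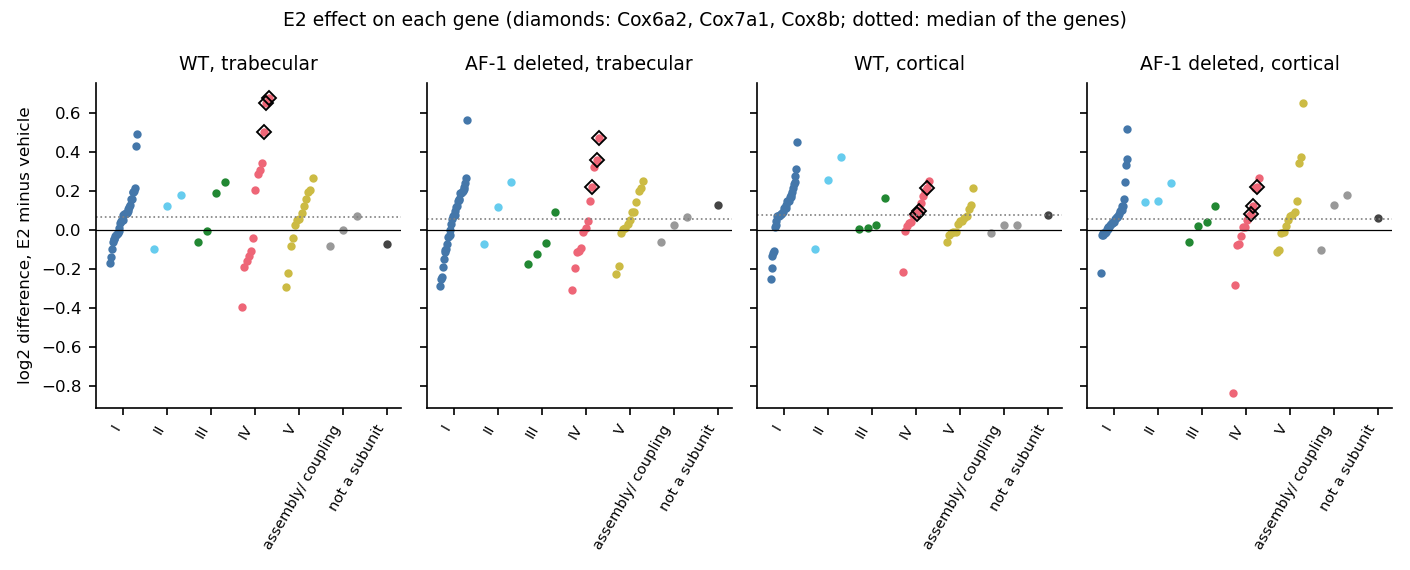
Log2 difference of E2 minus vehicle (y axis) for each gene by complex or role (x axis), in wild type and AF-1-deleted mice and in each bone; diamonds are the muscle forms and the dotted line is the median of the genes (0.06, 0.05, 0.08 and 0.06 from left to right). None of the points passed the test, and the muscle forms are highest in wild-type trabecular bone.

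Without E2, the AF-1 deletion gave 0 calls of 70 genes in trabecular bone and 0 of 71 in cortical bone (0.0% of all genes called in each). At an unadjusted p under 0.05 were 2 and 1 members, beside 371 of 8693 and 256 of 9096 genes. In trabecular bone of deleted mice Cox7a1 was at 8.82, 9.43, 8.93, 9.53 and 9.36, beside the wild-type values given above, a difference of 0.65 ± 0.28 (adjusted p = 0.942). The groups overlapped. Cox8b differed by 0.62 ± 0.31 and Cox6a2 by 0.46 ± 0.27, and the muscle marker mean was 10.54 ± 0.48 in deleted and 10.31 ± 0.53 in wild-type mice (SD, n = 5). Ndufb4 differed by −0.66 ± 0.26 (adjusted p = 0.942), with the lowest value, 5.60, on BeadChip 1 of the deleted group. The same vehicle arrays of deleted mice enter the E2 difference of Ndufb4. In cortical bone Cox8b had 0.54 ± 0.52 and Cox6a2 0.47 ± 0.42, where the marker mean was 13.06 ± 0.40 in deleted and 12.72 ± 0.71 in wild-type mice. Atp5f1 had −0.47 ± 0.21, from the same vehicle arrays of deleted mice that enter its E2 difference.

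The precision of these comparisons differed between genes. The SD within groups had a median of 0.27 over the members in trabecular and of 0.25 in cortical bone, below the 0.34 and 0.35 of all genes. In cortical bone the widest spreads were those of Cox7a1 (1.01), Cox8b (0.91), Cox4i2 (0.74), Ndufb9 (0.73) and Cox6a2 (0.73), and the narrowest was that of Atp5b (0.11). The E2 effect in cortical bone was accordingly known to an SE of 0.58 for Cox7a1, 0.52 for Cox8b and 0.42 for Cox6a2, against a median of 0.17 over the members.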

How the data were processed

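RNA of 40 bone samples was measured on Illumina BeadChips, read in 1 colour. The deposited table gives each probe's mean bead intensity from GenomeStudio, per the file headers and the submitters' processing notes, and a detection p-value for each intensity, per the file headers. Judged from the values, these deposited intensities were neither background-subtracted nor normalized. A second deposited table holds intensity values of the authors on a linear scale that, judged from the values, were quantile-normalized. No column lacked a sample (0).

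Of 25697 probes, 20733 were named by a current RefSeq symbol, 3903 through a synonym and 3 in another letter case, and 1058 kept the file's name. The neqc function of limma 3.58.1 (R 4.3.3, statmod 1.5.0) corrected the background through the detection p-values with an offset of 16, normalized by quantiles and took log2. The filter on detection (p under 0.01 on 5 or more arrays of the fit) and the brightest-probe rule left 8693 genes in fits of the 20 trabecular arrays, 9096 in the 20 cortical arrays and 9451 in fits of all 40. Group means were fitted with limma's lmFit and eBayes, and the Benjamini-Hochberg adjustment ran over every gene of a fit, with calls at 0.05. There were 10 comparisons: E2 against vehicle for either genotype of either bone, the interaction of E2 and genotype, the AF-1 deletion under vehicle, and trabecular minus cortical bone in vehicle-treated wild type and over all groups. The fitting steps were tested on simulated data. Array signal over background and the number of arrays limit the precision.

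Replicate numbers follow the BeadChip, which the columns of the table record, so that same-numbered arrays share a slide. The mean correlation of their deviations from the group means ran from 0.0386 to 0.320 in trabecular and from −0.0478 to 0.367 in cortical bone, across genes, which are not independent. The BeadChip as a block, other background, scaling, filter, probe and spread settings, the authors' values, left-out arrays and a muscle marker covariate were run as alternatives. The members, the gene lists and the tests were chosen with earlier results of these data known.

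The rule for naming genes took Cox6a2, Cox7a1, Cox8b and their partners in every comparison, not all of which are printed. It added up to 10 called members with the largest difference in each direction and the member of each complex with the smallest p-value. Of the genes that this rule names, 1 is not reported here and stays in the counts. Where the text names others, they were chosen after their values were seen. Bounds for undetected genes use the lowest signal among probes detected on the array (p under 0.01), and RefSeq tables gave the promoter windows.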

Additional observations from a re-analysis of the deposited data

Results flagged for a closer look

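In 8 genes of the family, each of the 8 groups of 5 arrays was examined for an array far from the others (a gap of more than 0.71 of the group's range), and 6 of the 64 groups held one. Chance gives about 1 in 20 groups. In vehicle-treated cortical bone of AF-1-deleted mice, the array of BeadChip 1 was low for Cox6a2, at 13.26 beside 13.85 to 14.02, and for Cox8b, at 11.92 beside 13.25 to 13.40. The muscle marker mean of that array, 12.36, was also the lowest of its group. In the same group, the array of BeadChip 3 was high for Cox4i2, at 8.54 beside 7.19 to 7.58. In vehicle-treated wild-type trabecular bone, Cox7a2 was at 8.41 on BeadChip 5 and at 8.91 to 9.03 on the others. Cox6b2 was low on BeadChip 1 in E2-treated wild-type trabecular bone, at 7.57 beside 8.68 to 9.12, and in vehicle-treated wild-type cortical bone, at 6.73 beside 8.03 to 8.50. The part of single arrays in the results above is given by the values without each array.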

How the results depend on the processing

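In all 8 comparisons of E2 and AF-1, 0 members were called under every alternative run. For trabecular minus cortical bone in vehicle-treated wild type, the 13 calls became 4 with equal medians, 28 without BeadChip 1 and with the BeadChip as a replicate block, 6 with only the compared groups in the fit, 0 with the muscle marker covariate and 1 with block and covariate. Leaving out single BeadChips or arrays gave 4 to 18 calls. Over all groups, the 53 calls became 25 with equal medians, 1 with the covariate and 1 with block and covariate, and 45 to 55 with single BeadChips or arrays left out. The replicate block by itself gave 19 and 58 calls, and added Cox6a1 (adjusted p = 0.0340) and Atp5f1 (0.0368) in vehicle-treated wild type. Among the differences between groups it changed no other call of a named gene. Of the slopes on the marker mean, it called 35 in place of 25 in cortical and 1 in place of 2 in trabecular bone. With the covariate and with block and covariate, the difference over all groups turned positive for Ndufb5 (0.28, 0.34), Sdhb (0.12, 0.14), Ndufb2 (0.31, 0.42), Ndufb9 (0.31, 0.44) and Atp5d (0.029, 0.109). In vehicle-treated wild type, Ndufs4 was at 0.0018 with both. The covariate is nearly collinear with the bone and has a single slope for both bones, and the cause of these turns was not tested. The mean level of Cox7a2, 8.70, was 9.21 without background correction and in the authors' values, since neither subtracts background. The fit with only the compared groups gives no separate value where all groups of the arrays enter. Signal near background limits Cox4i2, Ndufab1 and Ndufb11, detected on 19, 18 and 20 arrays.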
